A study of Homo sapiens with 6 samples.

Results

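The genes described here are 10 targets of the integrated stress response: PPP1R15A, TRIB3, SESN2, CHAC1, ASNS, PSAT1, PHGDH, VLDLR, DDIT4 and STC2. They were chosen by name from a table of 58735 genes, all 10 were found in it, and all 10 passed the filter on low counts. RNA was sequenced from T84 cells, a long-established line of human colorectal cancer, in 3 libraries from cells with a control hairpin (shControl) and 3 from cells with a hairpin against ACSL4 (shACSL4). The genotype is given as WT for the shControl cells and as a knockdown of ACSL4 for the shACSL4 cells, although the series text calls the latter a knockout. Both groups therefore carry a short hairpin RNA, grew in the same medium with serum and antibiotics, and differ by the hairpin's target. The sources used here do not say whether 1 or several hairpins or clones were used, or whether a group's libraries are separate cultures. The p-values therefore measure the spread between these libraries, which may be technical.

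In the integrated stress response, kinases that sense amino acid shortage, misfolded protein, double-stranded RNA or lack of haem phosphorylate the translation initiation factor eIF2. General protein synthesis then falls while translation of the transcription factor ATF4 rises, so ATF4 activity can change with little change in its messenger RNA. ATF4, with partners such as CHOP (DDIT3) and C/EBP proteins, induces genes for amino acid synthesis and uptake, for tRNA charging, for redox control and for feedback on the pathway itself. In intestinal epithelium the response is known for its part in secretory stress and in adaptation to nutrient shortage.

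Total counts ranged from 14740383 to 17620630 per library, and mitochondrial genes took 7.30% to 9.91% of them. ACSL4, which encodes an enzyme that activates polyunsaturated fatty acids, stood at 75.5, 72.2 and 72.0 in CPM (read counts scaled to library size) in shControl and at 10.3, 9.12 and 11.1 CPM in shACSL4, so the libraries went with their labels. All 8 colon epithelium markers examined (EPCAM, CDH1, VIL1, CDX2, KRT8, KRT18, KRT20 and LGALS4) were measured, with a summed level of 6250 to 7480 CPM in shControl and 7390 to 8690 CPM in shACSL4. Of these 8, KRT20, KRT8, KRT18 and VIL1 were higher and EPCAM was lower in shACSL4, and their part in the results below was not tested. The 8 markers of leukocytes, endothelium and fibroblasts (PTPRC, CD3E, CD68, PECAM1, CDH5, COL1A1, COL1A2 and PDGFRB) summed to 3.39 to 5.18 CPM in shControl and 2.72 to 3.25 CPM in shACSL4, none of them exceeded 2.96 CPM in any library, and CD3E had no count. Of the 8, only 2, COL1A1 and PDGFRB, passed the filter on low counts and were tested. COL1A1 was lower in shACSL4 (log2 fold change -1.49, edgeR adjusted p = 0.00927) and PDGFRB was not called. Among the untested, PTPRC and PECAM1 were lower and CDH5 higher in every shACSL4 library than in any shControl library, at 0 to 16 counts. The part of these markers in the results below was not tested. With RNA from bulk cultures, fewer cells expressing a gene and less of its RNA per cell cannot be told apart.

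The sequences in front of these genes were searched for letters that ATF4 and related factors are known to bind, and for a hypoxia motif. The aim was to show where such letters lie beside the changes reported below. RefSeq's promoter windows (GRCh38.p14), with 250 bases before and 50 after a transcription start, were found for all 10 genes. Both strands were searched for TGATGNAA, the core of the composite element bound by C/EBP and ATF proteins, for TGACGTCA, the cAMP response element, and for ACGTG, the core of the hypoxia response element. TGATGNAA lay in the windows of 2 of the 10 genes, ASNS and CHAC1, against 2.87% of the 10470 tested genes that have a window and 3.62% of all windows. TGACGTCA lay in 1 window, that of PPP1R15A, against 3.64% of tested genes and 1.85% of all windows, and ACGTG in 1, that of DDIT4, against 32.22% and 21.41%. The motifs were searched separately, and no 2 matches overlapped in these windows. Capitals mark the matches below, each strand is the gene's own, and the 30 bases of ASNS (chr7:97872458-97872487, minus strand) and CHAC1 (chr15:40953251-40953280, plus strand) are shown because the match is theirs. Both matches lie inside an exon of the GENCODE 29 annotation, 68 and 209 bases before the RefSeq start, and the CHAC1 match is on the opposite strand.
ASNS: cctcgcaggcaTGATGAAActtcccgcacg
CHAC1: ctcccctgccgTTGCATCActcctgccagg
PPP1R15A (chr19:48872171-48872391, plus strand), the gene with the largest rise of the 10, has its match 58 bases before the start, and DDIT4 (chr10:72273674-72273919, plus strand) has its match 125 bases before the start. Both are shown up to the first annotated exon.
PPP1R15A: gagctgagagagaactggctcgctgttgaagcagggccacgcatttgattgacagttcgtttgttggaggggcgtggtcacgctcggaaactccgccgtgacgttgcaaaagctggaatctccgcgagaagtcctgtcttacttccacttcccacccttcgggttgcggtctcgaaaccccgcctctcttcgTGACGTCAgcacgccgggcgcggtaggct
DDIT4: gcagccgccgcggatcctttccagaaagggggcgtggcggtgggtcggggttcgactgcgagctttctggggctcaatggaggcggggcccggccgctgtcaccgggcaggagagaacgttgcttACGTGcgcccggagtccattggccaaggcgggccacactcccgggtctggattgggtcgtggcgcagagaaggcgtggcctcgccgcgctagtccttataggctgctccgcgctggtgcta
SESN2 (chr1:28259268-28259517, plus strand), which rose, and VLDLR (chr9:2621537-2621786, plus strand), the gene that fell, are shown for comparison, and neither window holds any of the 3 motifs.
SESN2: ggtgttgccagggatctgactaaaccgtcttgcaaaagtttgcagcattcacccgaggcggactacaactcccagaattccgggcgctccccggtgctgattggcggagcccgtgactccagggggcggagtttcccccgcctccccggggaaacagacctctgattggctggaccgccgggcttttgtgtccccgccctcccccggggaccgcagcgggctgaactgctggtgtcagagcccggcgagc
VLDLR: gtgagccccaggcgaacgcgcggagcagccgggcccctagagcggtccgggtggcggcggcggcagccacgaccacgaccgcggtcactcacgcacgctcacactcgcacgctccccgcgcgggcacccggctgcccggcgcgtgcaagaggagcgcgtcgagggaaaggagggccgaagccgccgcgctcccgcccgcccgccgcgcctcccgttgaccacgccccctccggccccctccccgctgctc
A match is a description of letters only. TRIB3, whose rise was close to that of CHAC1, had 3 windows and no match in any of them, which says only that these letters are not in those windows.

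Of the 10 targets, 8 were higher and 1 was lower in shACSL4 than in shControl. PPP1R15A, CHAC1, TRIB3 and SESN2 rose by 2.42- to 3.63-fold. STC2, DDIT4, PSAT1 and ASNS rose by 1.28- to 1.49-fold. VLDLR fell, and PHGDH was not called. A gene was called changed at a Benjamini-Hochberg adjusted p under 0.05 in edgeR's quasi-likelihood test, and of all 15694 genes tested 47.2% were called, 24.0% as higher and 23.1% as lower. The median log2 fold change (shACSL4 over shControl) was 0.51 over the 10 targets and 0.01 over all genes tested. Past an absolute log2 fold change of 1 lay 4 of the 10 as rises and 1 as a fall, where 6.86% and 5.03% of all genes did so. The groups did not overlap for 9 of the 10, 8 higher and 1 lower, which was also so for 55.1% of all genes (28.3% higher and 26.8% lower). With libraries scaled by their size alone, the median change was 0.63 over the targets and 0.13 over all genes, and 65.6% rather than 50.9% of all calls were rises. The 10 genes are no random draw, since they were named with earlier results of these data known, so these shares are descriptions.

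**Figure D1:**
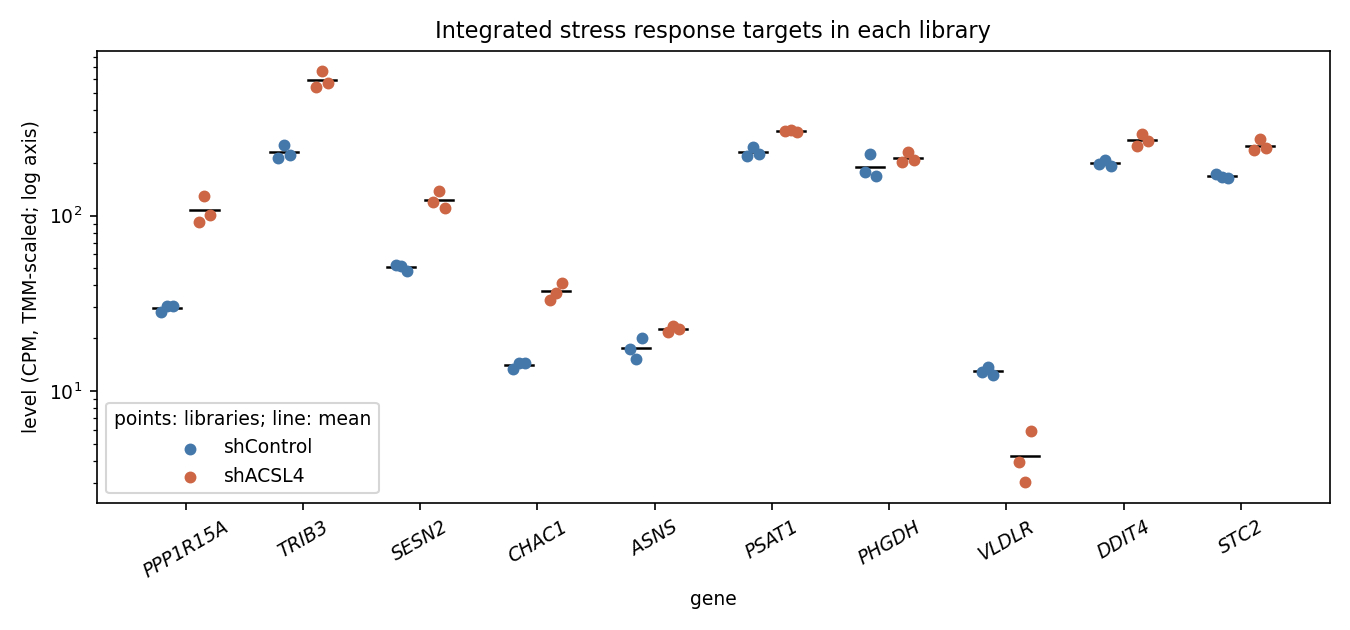
Level of each of the 10 targets in each library, in CPM on a log axis, with 3 shControl and 3 shACSL4 libraries as points and a line at each group's mean. The groups are apart for every gene except PHGDH, and VLDLR is the gene whose shACSL4 points lie below its shControl points.

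PPP1R15A encodes GADD34, the stress-induced subunit that directs protein phosphatase 1 to eIF2 and so ends the response. The gene (ENSG00000087074) lies on chromosome 19, 48872392 to 48876057, plus strand, of GRCh38. The shControl libraries (replicates 1 to 3) held PPP1R15A at 28.0, 30.4 and 30.3 CPM, and the shACSL4 libraries, in the same order, at 92.0, 129 and 101 CPM. Every shACSL4 library was above every shControl library, and shACSL4 replicate 2 was the highest of the 6. Group means of 29.6 ± 1.37 and 107 ± 19.6 CPM (SD, n = 3) made a 3.63-fold rise (95% confidence interval 3.07 to 4.30; log2 fold change 1.86, SE 0.12, edgeR adjusted p = 1.96e-09). The relative spread between libraries was also wider in shACSL4, with a coefficient of variation of 18.2% against 4.61%.

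TRIB3 encodes a pseudokinase that is induced by ATF4 and CHOP and restrains both ATF4 and AKT. The gene (ENSG00000101255) lies on chromosome 20, 362835 to 397559, plus strand. It was at 214, 254 and 221 CPM in shControl and at 544, 664 and 571 CPM in shACSL4, with no overlap between the groups. The change was 2.58-fold (interval 2.23 to 3.00; log2 fold change 1.37, SE 0.10, edgeR adjusted p = 1.63e-08). In each group replicate 2 had the highest TRIB3 level.

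SESN2 and DDIT4 encode Sestrin 2 and REDD1, a pair of proteins known to lower mTORC1 activity under stress. SESN2 (ENSG00000130766; chromosome 1, 28259527 to 28282491, plus strand) was at 52.4, 51.9 and 48.5 CPM in shControl and at 120, 139 and 111 CPM in shACSL4. The shACSL4 libraries lay far above the shControl libraries, and the log2 fold change was 1.27 (SE 0.10, edgeR adjusted p = 1.84e-08). DDIT4 (ENSG00000168209; chromosome 10, 72273920 to 72276036, plus strand) was at 197, 208 and 192 CPM in shControl and at 249, 293 and 265 CPM in shACSL4. Its groups did not overlap, but its rise was smaller, at 1.36-fold (interval 1.19 to 1.54; log2 fold change 0.44, SE 0.09, edgeR adjusted p = 0.000661). DDIT4 lies in a stretch of chromosome 10 where the genes around it were also higher, with a median log2 fold change of 0.345 over the 51 tested genes centred on it. Relative to that median its change was 0.09 and was not called (adjusted p = 0.425, t test with the SE from edgeR). The antisense gene DDIT4-AS1, which covers 41.16% of the exon bases of DDIT4, had 0 counts in all 6 libraries.

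CHAC1 encodes an enzyme that breaks down glutathione and is a late target of ATF4 and CHOP. The gene (ENSG00000128965) lies on chromosome 15, 40952962 to 40956519, plus strand. It was at 13.3, 14.4 and 14.5 CPM in shControl and at 33.0, 36.4 and 41.5 CPM in shACSL4, so the 3 shACSL4 libraries lay above all shControl libraries. The change was 2.63-fold (interval 2.22 to 3.11; log2 fold change 1.39, SE 0.11, edgeR adjusted p = 5.82e-08).

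The 3 targets that make amino acids had smaller estimated changes, at a log2 fold change of 0.17 to 0.40. ASNS encodes asparagine synthetase, a classic target of ATF4. PHGDH and PSAT1 encode the enzymes of the first and the second step of serine synthesis. PSAT1 (ENSG00000135069; chromosome 9, 78297143 to 78330093, plus strand) was at 219, 245 and 224 CPM in shControl and at 302, 307 and 298 CPM in shACSL4. The shACSL4 libraries were close together and all above the shControl libraries, at a 1.32-fold rise (log2 fold change 0.40, SE 0.08, edgeR adjusted p = 0.000996). Against a minimum fold of 1.2 the PSAT1 call was not made (edgeR adjusted p = 0.0608).

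ASNS (ENSG00000070669; chromosome 7, 97852118 to 97872542, minus strand) was at 17.3, 15.2 and 20.1 CPM in shControl and at 21.6, 23.3 and 22.5 CPM in shACSL4. The groups were barely apart, with shControl replicate 3 just under shACSL4 replicate 1. The log2 fold change was 0.36 (SE 0.12, interval 0.10 to 0.62, edgeR adjusted p = 0.0216). This call was lost with DESeq2 (adjusted p = 0.0532), without shControl replicate 1 or 2 (edgeR adjusted p = 0.0647 and 0.081), without shACSL4 replicate 2 (0.0728) and against a minimum fold of 1.2 (0.197). A gene on the same strand, AC079781.5, shares 44.56% of the exon bases of ASNS and had 18 to 55 counts per library, so the level of ASNS is uncertain where the counting could split reads between them.

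PHGDH (ENSG00000092621; chromosome 1, 119648411 to 119744226, plus strand) was at 178, 223 and 168 CPM in shControl and at 203, 230 and 207 CPM in shACSL4. The groups overlapped, with shControl replicate 2 above 2 of the 3 shACSL4 libraries. Its log2 fold change of 0.17 (SE 0.10) had an interval of -0.05 to 0.39, which holds both 0 and the estimate for ASNS (edgeR adjusted p = 0.197). Without shControl replicate 2 it was 0.30 and was called (edgeR adjusted p = 0.00905), and with library size alone as scaling it was 0.29 and was called (0.0224).

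VLDLR and STC2 encode a surface and a secreted protein. VLDLR is a lipoprotein and reelin receptor that ATF4 is known to induce through PERK, and STC2 encodes stanniocalcin 2, a glycoprotein linked to calcium handling and growth factor control. STC2 (ENSG00000113739; chromosome 5, 173314713 to 173329503, minus strand) was at 173, 166 and 164 CPM in shControl and at 237, 272 and 241 CPM in shACSL4. Its groups were apart, at a 1.49-fold rise (interval 1.31 to 1.69; log2 fold change 0.58, SE 0.09, edgeR adjusted p = 4.25e-05).

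VLDLR (ENSG00000147852; chromosome 9, 2621834 to 2660053, plus strand) was at 12.8, 13.8 and 12.3 CPM in shControl and at 3.91, 3.02 and 5.88 CPM in shACSL4. It went against the other targets, with every shACSL4 library below every shControl library and a 3.04-fold fall (log2 fold change -1.61, SE 0.20, interval -2.02 to -1.19, edgeR adjusted p = 5.23e-06). It is also the least counted of the 10, with 61, 53 and 93 counts in shACSL4. The spread between the shACSL4 libraries was wide, with a coefficient of variation of 34.3%. The antisense gene VLDLR-AS1 shares 7.9% of its exon bases and had 1 to 9 counts per library. With limma on log2(FPKM + 1), where the added 1 shrinks low values, the fall was -0.72 and was still called (limma adjusted p = 0.000613).

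**Figure D2:**
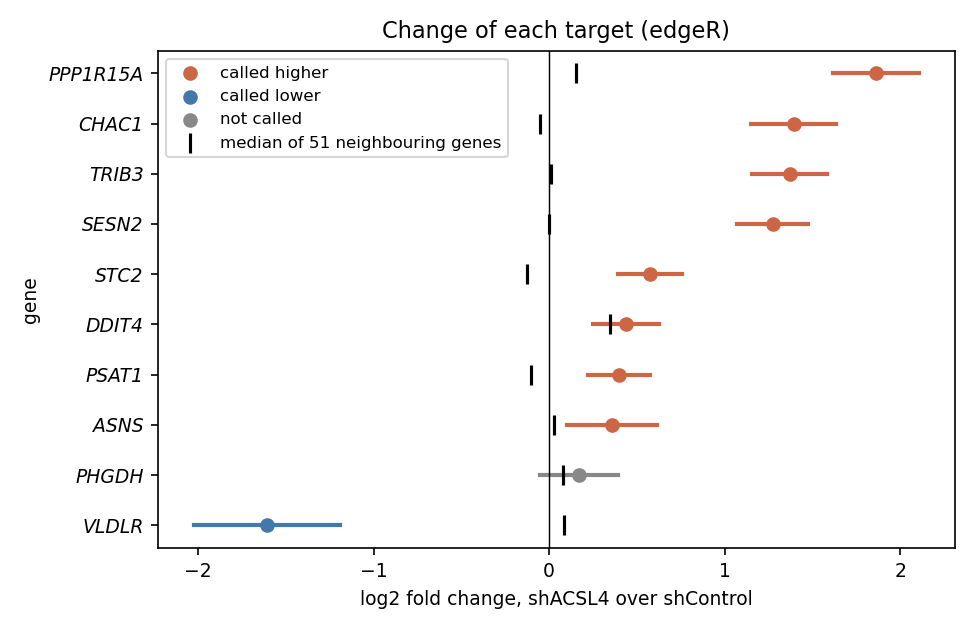
Log2 fold change of each target, shACSL4 over shControl, as a point with its 95% confidence interval from edgeR, and a black tick at the median change of the 51 neighbouring tested genes. The 4 largest rises lie at 1.27 to 1.86, the 4 smaller ones at 0.36 to 0.58, and at DDIT4 the tick (0.345) lies inside the gene's interval.

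Levels of different genes were compared per length, on the deposited FPKM values. The length is that of all annotated exons of a gene together, at 9217 bases for PHGDH, 3453 for SESN2 and 3093 for PPP1R15A. Which of these exons the cells use was not examined, so the order between genes may depend on this length. In shControl the order was PSAT1 (104 FPKM), DDIT4 (96.0), TRIB3 (66.4), STC2 (27.2), PHGDH (20.5), SESN2 (14.7), PPP1R15A (9.51), CHAC1 (6.80), ASNS (3.91) and VLDLR (1.38). Neighbours in this order were apart in every library except PSAT1 and DDIT4, whose libraries overlapped. In shACSL4 TRIB3 came first, at 170 ± 18.6 FPKM (SD, n = 3), ahead of PSAT1 (136 ± 2.37) and DDIT4 (129 ± 11.1), which again overlapped. STC2 (40.2), SESN2 (35.1) and PPP1R15A (34.2) formed a second run of overlapping neighbours. By this measure PPP1R15A and SESN2 stood above PHGDH (22.8), which they had not in shControl. In CPM, without division by length, PHGDH was above both in every library of both groups. The levels thus spanned from VLDLR, at the 20.0th percentile of all tested genes over the 6 libraries, to PSAT1 at the 98.6th.

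The authors' deposited table, tested with a tool not given in the sources used here, has all 10 genes with the same sign. Its log2 fold changes of ASNS (0.347), EIF2B1 (0.207) and JDP2 (-0.287) equal those of the DESeq2 alternative. The table rests on the same counts and is no independent check. It gives log2 fold changes of 1.85 for PPP1R15A, 1.38 for CHAC1, 1.36 for TRIB3 and 1.26 for SESN2. In the authors' deposited table VLDLR is at -1.62, and 7 of the 10 are higher and 1 lower at an adjusted p under 0.05. There ASNS has an adjusted p of 0.0548 and PHGDH of 0.299.

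The sensors and the exchange factor upstream of ATF4 showed small changes in both directions. Of the 10 genes listed for the eIF2 kinases, eIF2 alpha and the exchange factor eIF2B, 3 were higher and 3 lower (median log2 fold change 0.08), beside 24.0% and 23.1% of all genes. EIF2AK2, the kinase PKR that senses double-stranded RNA, was at 111, 96.2 and 113 CPM in shControl and at 159, 161 and 125 CPM in shACSL4 (log2 fold change 0.47, edgeR adjusted p = 0.00134). EIF2AK4, the kinase GCN2 that senses uncharged tRNA, went from 63.3, 62.0 and 73.2 to 52.7, 51.2 and 42.8 CPM (log2 fold change -0.44, edgeR adjusted p = 0.00192). EIF2AK1, the haem-regulated kinase HRI, changed by -0.35 on the log2 scale (edgeR adjusted p = 0.00357). Relative to its neighbouring genes it changed by -0.09 and was not called (t test adjusted p = 0.42). EIF2AK3, the kinase PERK of the endoplasmic reticulum, was not called (0.15, edgeR adjusted p = 0.27). The substrate gene EIF2S1 was not called either (-0.07).

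Of the eIF2B subunits, EIF2B1 (0.22) and EIF2B2 (0.26) were higher, EIF2B3 was lower (-0.42), and EIF2B4 (0.07) and EIF2B5 (0.08) were not called. The EIF2B1 and EIF2B2 calls were lost with no filter on low counts (edgeR adjusted p = 0.122 and 0.0772). DESeq2 did not call EIF2B1 either (DESeq2 adjusted p = 0.0696). Relative to neighbouring genes EIF2B1 and EIF2B2 were also lost (t test adjusted p = 0.0576 and 0.0786), and EIF2B3 was lost too (0.253). Leaving out 1 library lost EIF2B1 for each library except shACSL4 replicate 2 (edgeR adjusted p = 0.0735 to 0.127). EIF2B2 was lost for shControl replicate 3 and shACSL4 replicates 1 and 2 (edgeR adjusted p = 0.0503 to 0.0795). RNA levels do not show the phosphorylation of eIF2, which was not measured in these files.

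ATF4 messenger RNA did not differ detectably. It was at 286, 338 and 304 CPM in shControl and at 296, 312 and 319 CPM in shACSL4, with overlapping groups and a log2 fold change of -0.00 (SE 0.09, interval -0.19 to 0.19, edgeR adjusted p = 0.987). Of the 8 listed transcription factors of the response, 5 were higher and 1 lower (median 0.42), beside 24.0% and 23.1% of all genes. DDIT3, which encodes CHOP, rose from 20.4, 24.2 and 22.4 to 46.8, 53.9 and 60.3 CPM (log2 fold change 1.27, SE 0.11, edgeR adjusted p = 1.02e-07). Its groups were far apart, and its change was close in size to those of TRIB3 and CHAC1. DDIT3 (chromosome 12, 57516588 to 57521737, minus strand) overlaps MARS1 (57475445 to 57517569, plus strand), which had 4330 to 7051 counts per library. The level of DDIT3 is therefore uncertain where the counting ignored strand, and the shared exon bases were not computed.

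ATF3, a stress-induced repressor and activator, rose from 21.1, 22.1 and 27.1 to 37.9, 49.9 and 38.8 CPM (log2 fold change 0.85, edgeR adjusted p = 3.18e-05). CEBPB (0.56), ATF5 (0.67) and CEBPG (0.28), which encode further bZIP factors of the pathway, were higher as well. Relative to neighbouring genes the calls of ATF5 and CEBPG were lost (t test adjusted p = 0.192 and 0.504), leaving 3 rises in the list. CEBPG was also lost without shControl replicate 1 (edgeR adjusted p = 0.0884). NUPR1 was not called (0.15), and JDP2, a bZIP repressor, was lower by a small margin (-0.27, edgeR adjusted p = 0.0332), a call that DESeq2 did not make (adjusted p = 0.0543) and that was lost on leaving out any library except shControl replicate 3 (edgeR adjusted p = 0.0524 to 0.181).

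Among 19 other ATF4 targets for amino acid uptake and one-carbon metabolism, 10 were higher and 3 lower, beside 24.0% and 23.1% of all genes. The median log2 fold change of the 19 was 0.34. The 4 with the smallest adjusted p all rose. CTH, the cystathionine lyase that makes cysteine, went from 18.3, 17.8 and 21.3 to 54.8, 60.4 and 61.7 CPM (log2 fold change 1.63, SE 0.10, edgeR adjusted p = 2.07e-09). SLC6A9, a glycine transporter, rose by 1.35, PCK2, the mitochondrial PEP carboxykinase, by 1.31 and SLC1A4, a neutral amino acid transporter, by 1.06 on the log2 scale. With library size alone 14 of the 19 were higher, as were 31.1% of all genes under that scaling. PSPH, which completes serine synthesis after PHGDH and PSAT1, was at 0.11 and was not called (edgeR adjusted p = 0.328).

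SLC7A11, named after its values were seen, went the other way. It encodes the cystine importer and is known as a target of both ATF4 and NRF2. It was at 317, 262 and 331 CPM in shControl and at 193, 189 and 163 CPM in shACSL4 (log2 fold change -0.74, SE 0.10, edgeR adjusted p = 1.81e-05). The other falls of this list were ALDH18A1 (-0.35) and PYCR1 (-0.26), the enzymes that make proline. Relative to its neighbouring genes PYCR1 was at 0.03 and was not called (t test adjusted p = 0.854). Its call was also lost without shControl replicate 1 or 2 or shACSL4 replicate 1 (edgeR adjusted p = 0.0501 to 0.0877). With library size alone PYCR1 was at -0.14 and was not called (edgeR adjusted p = 0.162), nor was it against a minimum fold of 1.2 (0.45).

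Of 12 aminoacyl-tRNA synthetases known as targets of the response, 9 were higher and 0 lower, beside 24.0% and 23.1% of all genes. These calls are edgeR's, and 0 of the 12 were lower also at an unadjusted p under 0.05 and with DESeq2. Their median log2 fold change was 0.37. WARS1 went from 173, 198 and 171 to 305, 360 and 305 CPM (log2 fold change 0.84, edgeR adjusted p = 2.41e-06), and SARS1 (0.72), GARS1 (0.54) and IARS1 (0.42) rose too. These genes charge tRNA with tryptophan, serine, glycine and isoleucine. LARS1 (-0.05), NARS1 (0.08) and YARS1 (-0.09) were not called. Against a minimum fold of 1.2, 5 of the 12 were higher, and relative to neighbouring genes 6 were, with AARS1, EPRS1 and MARS1 lost. Of all 15694 genes, 2441 and 3439 were higher in these alternatives, in the same order. EPRS1 and MARS1 were also lost without shControl replicate 1 or 3 or shACSL4 replicate 1 or 2 (edgeR adjusted p = 0.0719 to 0.142).

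Of 14 targets of IRE1 and ATF6, which respond to misfolded protein in the endoplasmic reticulum, 8 were lower and 1 higher. Of all genes 23.1% were lower and 24.0% higher, and the median log2 fold change of the 14 was -0.30. The chaperone gene HSPA5 was at 869, 958 and 889 CPM in shControl and at 559, 538 and 533 CPM in shACSL4, and MANF (-0.68), PDIA4 (-0.48) and HSP90B1 (-0.48) were lower as well. XBP1 was the 1 rise, by a small margin (0.23, edgeR adjusted p = 0.0429), and it was not called with median-of-ratios scaling (0.0528) or on leaving out any library except shControl replicate 2 (0.0794 to 0.181). Against a minimum fold of 1.2, 4 of the 14 were lower, as were 2209 of all 15694 genes. With library size alone the median was -0.18 over the 14 and 0.13 over all genes. The fall of PDIA6 (-0.26) was then not called (edgeR adjusted p = 0.138). It was also lost without shControl replicate 1 or without shACSL4 replicate 1 or 2 (edgeR adjusted p = 0.0518 to 0.0646). All 10 hypoxia-inducible genes examined were lower (median -1.74), beside 23.1% of all genes. Of the 10, EGLN3 was at -2.19, BNIP3 at -1.80, P4HA1 at -1.71 and CA9 at -2.75. VEGFA, at -0.31 the smallest of these falls, was not called with library size alone (edgeR adjusted p = 0.109), without shControl replicate 1 (0.0613) or without shACSL4 replicate 1 (0.0603). VLDLR and DDIT4 are both known to be induced by low oxygen as well as by ATF4, and in these libraries VLDLR fell and DDIT4 rose, while the summed level of the 10 hypoxia-inducible genes was 1300 to 1340 CPM in shControl and 675 to 685 CPM in shACSL4. The part of hypoxia signalling in either change was not tested.

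**Figure D3:**
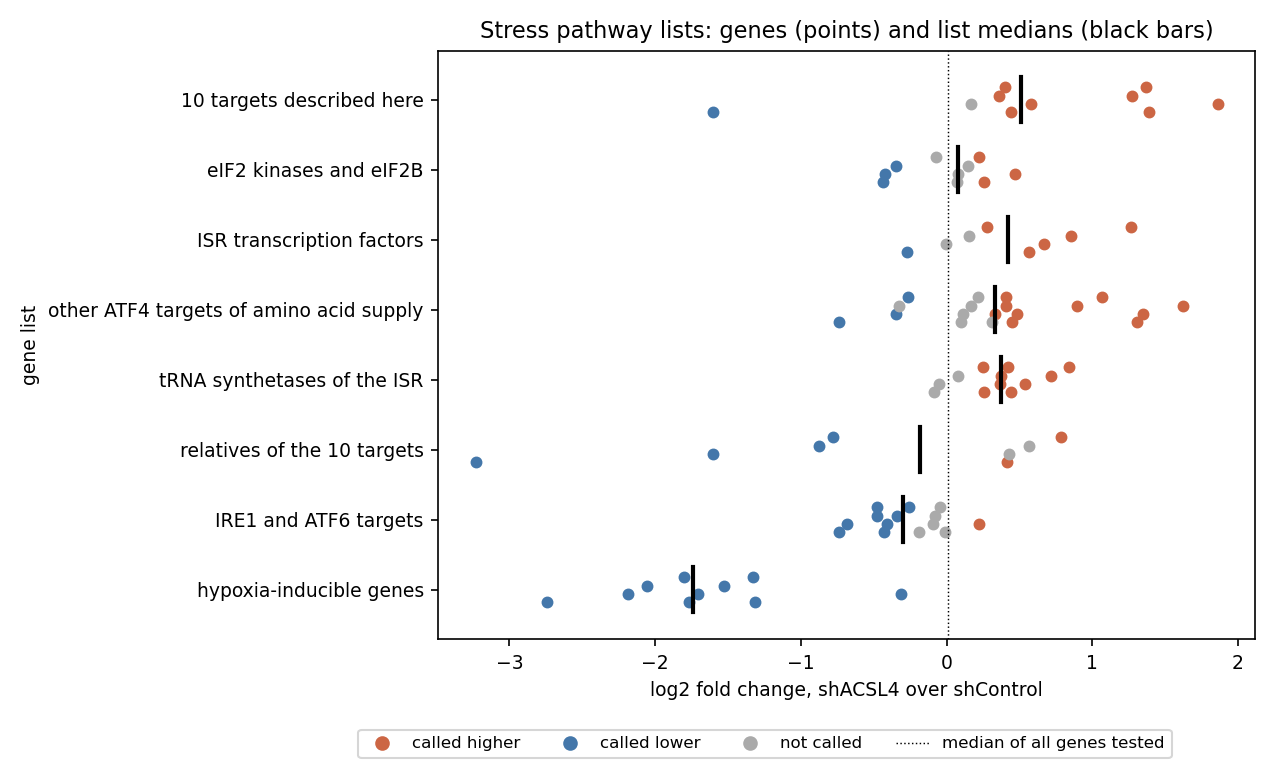
Log2 fold change of every tested gene in 8 lists (points, coloured by call), with each list's median as a black bar and the median of all genes tested as a dotted line. The medians of the 10 targets (0.51), the transcription factors (0.42), the ATF4 targets (0.34) and the tRNA synthetases (0.37) lie above the dotted line, and those of the IRE1 and ATF6 targets (-0.30) and the hypoxia-inducible genes (-1.74) below it.

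Targets with a measured relative or pathway partner were also set against it in the same library, as a log2 ratio of counts that needs no scaling between libraries, and all 10 were set against ATF4. PPP1R15B encodes the constitutive partner of protein phosphatase 1 for eIF2, the counterpart of GADD34. It fell from 194, 167 and 218 to 107, 106 and 102 CPM (log2 fold change -0.88, edgeR adjusted p = 1.73e-06) while PPP1R15A rose. The ratio of PPP1R15A to PPP1R15B counts was 0.154 in shControl (log2 ratio -2.70 ± 0.21, SD, n = 3) and 1.01 in shACSL4 (0.02 ± 0.25). Per length of all annotated exons, PPP1R15A was below PPP1R15B in shControl (9.51 and 36.7 FPKM) and above it in shACSL4 (34.2 and 19.8 FPKM). The difference of 2.71 on the log2 scale had an exact two-sided permutation p of 0.1, the smallest that 3 against 3 libraries allow. Of the 18 ratios computed (8 to relatives or partners, 10 to ATF4), 15 had groups that did not overlap. For ratios to ATF4 this was so for 50.4% of the 15411 other tested genes with enough counts. No such share was computed for ratios to relatives or partners. Each of the 15 had the same p, with a Benjamini-Hochberg value of 0.12, and no ratio can pass 0.05 in this design.

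SESN1, another sestrin, fell (log2 fold change -0.78, edgeR adjusted p = 0.000167). SESN2 counts were 2.95 times those of SESN1 in shControl and 12.1 times in shACSL4. SESN3 was not called (0.56; without shControl replicate 3 it was, at 1.04), and its ratio to SESN2 overlapped. TRIB1 rose with TRIB3 (0.78), and the ratio of TRIB3 to TRIB1 went from 2.31 to 3.47. TRIB2 had at most 1 count in any library and DDIT4L had 0 counts in all 6, where 3 counts correspond to 0.170 to 0.204 CPM. CHAC2, the constitutive relative of CHAC1, was not called (0.43, edgeR adjusted p = 0.0549) but was in 5 alternatives. With edgeR these were without shACSL4 replicate 1 (0.0266), with library size alone (0.0212) and under the stricter filter of 50 counts on average (0.0476). The others were relative to neighbouring genes (t test adjusted p = 0.015) and with limma-trend (limma adjusted p = 0.0491). The CHAC1 to CHAC2 ratio went from 2.40 to 4.69.

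STC1, the other stanniocalcin, had 23, 15 and 20 counts in shControl and 3, 2 and 1 in shACSL4. Its counts per total were 0.109 of the shControl value (exact 95% interval 0.0385 to 0.253, for counting error only), in contrast to the rise of STC2. LRP8, which shares reelin and apolipoprotein E as ligands with VLDLR, was at 132, 117 and 140 CPM in shControl and at 42.9, 44.8 and 40.5 CPM in shACSL4. Its log2 fold change of -1.60 (SE 0.09, edgeR adjusted p = 8.15e-10) was as large as that of VLDLR.

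Against ATF4 itself, 8 of the 10 targets had a higher ratio in every shACSL4 library than in any shControl library, which was so for 25.8% of the 15411 other tested genes with enough counts (50.4% in either direction). ATF4 itself was not called, and these ratios use the same counts as the CPM values, so they are no independent evidence. TRIB3 had 0.742 counts per ATF4 count in shControl and 1.91 in shACSL4, a comparison of read counts and not of levels per length. PPP1R15A had 0.096 and 0.344, and PSAT1 0.743 and 0.979. PHGDH overlapped, at 0.610 and 0.690 (exact permutation p = 0.2), and VLDLR fell from 0.0421 to 0.0135. PHGDH per PSAT1 count was 0.821 and 0.704, with overlapping groups, so a different change of the 2 serine synthesis genes was not shown (exact permutation p = 0.2).

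**Figure D4:**
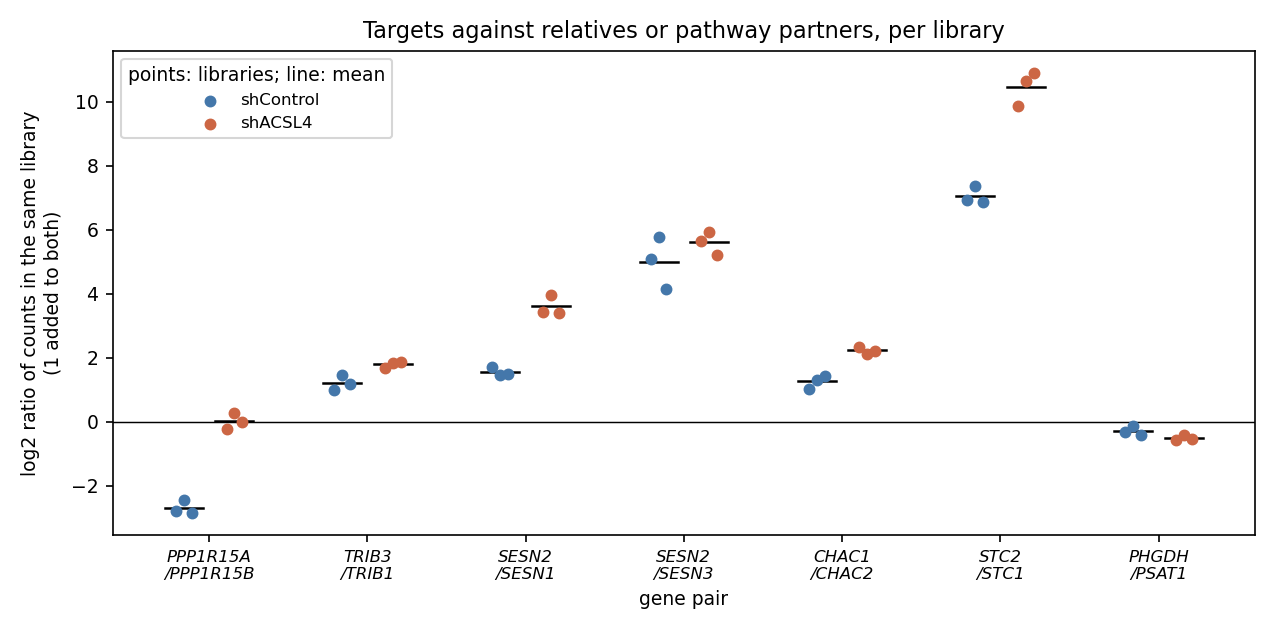
Log2 ratio of the counts of a target to those of a relative or pathway partner in the same library, with 1 added to both counts, for 7 pairs. Points are the 3 shControl and 3 shACSL4 libraries and lines are means. The PPP1R15A to PPP1R15B ratio moves from -2.70 to 0.02 and the STC2 to STC1 ratio from 7.05 to 10.46, while the SESN2 to SESN3 and PHGDH to PSAT1 groups overlap.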

How the data were processed

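Per the file headers, the authors deposited 1 table with raw counts and FPKM for every library, beside group mean signal, log2 fold changes, p-values and adjusted p-values of their own test. The submitters' processing notes list CASAVA, HISAT2 and GRCh38 (hg38) with no version numbers. How reads were assigned to genes, and whether strand was used, is not stated there, which leaves overlapping and antisense genes uncertain. Libraries were made from Trizol-extracted RNA after ribosomal RNA removal, per the labels' protocols. Control columns carry the prefix NC, a name absent from the titles. As the table's only group beside shACSL4 they were taken as shControl, matched by number.

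Counts passed filterByExpr and TMM scaling, and the 3 shControl and 3 shACSL4 libraries were compared with edgeR 4.0.16 (limma 3.58.1, R 4.3.3) by its quasi-likelihood test without covariates, with Benjamini-Hochberg adjustment over 15694 genes. CPM uses the scaled library sizes. Alternatives were DESeq2 1.42.0, other scalings and filters, limma-voom, limma-trend on log2(FPKM + 1), a replicate block, leaving out each library, a minimum fold of 1.2, and subtraction of the median change of 51 neighbouring tested genes, whose own error is left out. The change relative to that median was divided by the gene's SE and tested with a t test, with Benjamini-Hochberg adjustment. SEs and intervals were derived from edgeR's log2 fold change and F statistic. Ratios used counts with 1 added, a minimum mean of 10 counts, and an exact permutation test. The fit was tested on simulated data. All 109 symbols of the lists and markers matched the table, 12 of them through an older symbol. Members and lists were chosen with earlier results of these data known. The rule named all 10 targets, ACSL4, every gene of the upstream, transcription factor and relative lists (1 relative and its ratio are not reported here), and, from each other list, the called genes of smallest adjusted p, at most 4. Any further gene of those lists was named after its values were seen.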

Additional observations from a re-analysis of the deposited data

How the results depend on the processing

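Over 16 alternatives, PPP1R15A, TRIB3, SESN2, CHAC1, STC2 and VLDLR kept their call and direction, as did 151 of 160 values over the 10 targets. The other 9 (7 calls lost, 2 gained, 0 reversed) concern ASNS, PSAT1, PHGDH and DDIT4 and are given above. Between 6 and 9 targets were called higher, and 1 lower in each. The 6 came with a minimum fold of 1.2, where 2441 genes were higher, and the 9 with library size alone, where 4878 were. Over the alternatives 2209 to 3722 genes were lower. For what follows the cause was not tested.

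Against a minimum fold of 1.2, 2441 genes were higher and 2209 lower, and the lists gave 1 rise and 0 falls for the eIF2 kinases and eIF2B, 0 falls for the transcription factors, 1 fall for the other ATF4 targets, 5 rises for the tRNA synthetases, 1 rise for the relatives, and 0 rises and 4 falls for the IRE1 and ATF6 targets. Relative to neighbouring genes 3439 genes were higher and 3444 lower. There the eIF2 list gave 1 rise and 1 fall, the transcription factors 3 rises, and PYCR1 turned from -0.26 to 0.026. With no filter the eIF2 list gave 1 rise. The fall of JDP2 left 0 with DESeq2, library size alone and limma-trend, and the rise of XBP1 left 0 with median-of-ratios scaling, no filter and limma-trend. Leaving out 1 library gave 1 to 2 rises in the eIF2 list, 0 to 1 falls among the transcription factors and 0 to 1 rises among the IRE1 and ATF6 targets.

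Same-numbered libraries did not deviate together (correlations 0.09, -0.02 and 0.01), so the numbers were not read as pairs. With the replicate block 3769 genes were higher and 3645 lower, and no target's call changed. VLDLR, with 53 to 93 counts per shACSL4 library, is the target most limited by depth.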
